A study of Drosophila melanogaster with 3 samples.

Results

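Of the 7434 summits in the thresholded peak list of the *Drosophila melanogaster* protein CG13894, 237 (3.19%) had a DNA replication-related element (DRE) close by: the 200 bp of dm6 sequence centred on the summit held at least 1 exact copy. The DRE is an 8 bp palindrome, TATCGATA, so that both strands read alike. Membership was read from the reference sequence and the deposited summit position alone, and used neither peak strength nor replicate support. These members are called DRE summits below, and the other 7197 are the summits without a DRE. The profile is chromatin immunoprecipitation and sequencing (ChIP-seq) of whole embryos aged 2 to 24 h, from 1 group of 3 biological replicates. All were of a single transgenic line in which CG13894 is stably expressed with green fluorescent protein (GFP) fused to its C-terminal end, and the tagged protein was pulled down through GFP. No other genotype, treatment or control group is compared here, the control library that the labels name was not used here, and whole embryos mix every cell type, so that binding in few cells and weak binding in many cannot be told apart. The thresholded list holds the peaks of the pooled replicates that passed a limit on the irreproducible discovery rate, a measure of how well peak ranks repeat. The deposited lists carry no read counts, so library depth is unknown.

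The DRE is the recognition sequence of DREF, the DNA replication-related element-binding factor, a zinc-finger protein of the BED type. It was first described at promoters of fly genes for DNA replication and cell proliferation, and it is also common in the core promoters of genes used in nearly every cell. The chromatin boundary protein BEAF-32 recognises the shorter word CGATA, which lies inside the DRE, so a match to the DRE does not say which protein, if any, is there.

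The following stretches of the reference (dm6) are shown because they cover the kinds of DRE summit described below: strong promoter summits with the DRE near an edge of the window (Atat, CG11151 and Lamtor3), promoter summits of the translation machinery (eEF1gamma and RpL28), a summit with 2 DREs (kibra), the single described DREF target among the DRE summits (mor) and the strongest one far from a start site (ey). Each reads 5′ to 3′ on the strand of the nearest gene, or on the plus strand for ey, with the DRE in capitals. Annotated exon sequence was cut away, so that some stretches are shorter than the window. Their positions are chr3L:9426772-9426971 (minus strand), chrX:13739453-13739652 (plus), chr2L:17481042-17481230 (plus), chr3R:29220032-29220171 (plus), chr3L:3222961-3223099 (minus), chr3R:14724267-14724466 (minus), chr3R:15972933-15973132 (minus) and chr4:696784-696983 (plus).
Atat: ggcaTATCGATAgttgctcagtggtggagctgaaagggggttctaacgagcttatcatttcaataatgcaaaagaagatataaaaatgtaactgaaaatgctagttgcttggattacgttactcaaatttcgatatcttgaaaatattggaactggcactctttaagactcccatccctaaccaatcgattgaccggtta
CG11151: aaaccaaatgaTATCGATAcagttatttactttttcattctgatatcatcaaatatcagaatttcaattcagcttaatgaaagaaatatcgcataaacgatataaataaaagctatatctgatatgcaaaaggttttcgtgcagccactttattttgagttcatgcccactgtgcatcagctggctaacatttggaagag
Lamtor3: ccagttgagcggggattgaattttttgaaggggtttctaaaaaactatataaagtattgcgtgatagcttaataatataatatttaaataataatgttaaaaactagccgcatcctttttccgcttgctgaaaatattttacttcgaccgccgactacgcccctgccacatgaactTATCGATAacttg
eEF1gamma: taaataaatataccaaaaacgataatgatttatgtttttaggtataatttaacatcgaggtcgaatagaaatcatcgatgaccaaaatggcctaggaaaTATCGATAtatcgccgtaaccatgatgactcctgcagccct
RpL28: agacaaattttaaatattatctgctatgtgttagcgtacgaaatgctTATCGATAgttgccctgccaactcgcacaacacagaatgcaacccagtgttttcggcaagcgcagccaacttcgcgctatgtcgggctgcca
kibra: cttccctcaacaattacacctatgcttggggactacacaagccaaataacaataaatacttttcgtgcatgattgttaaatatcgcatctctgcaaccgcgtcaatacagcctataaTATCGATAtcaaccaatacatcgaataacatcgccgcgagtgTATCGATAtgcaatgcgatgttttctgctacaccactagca
mor: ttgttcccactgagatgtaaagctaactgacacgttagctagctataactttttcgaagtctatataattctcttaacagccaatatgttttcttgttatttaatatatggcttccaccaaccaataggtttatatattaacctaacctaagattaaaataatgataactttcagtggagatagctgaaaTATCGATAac
ey: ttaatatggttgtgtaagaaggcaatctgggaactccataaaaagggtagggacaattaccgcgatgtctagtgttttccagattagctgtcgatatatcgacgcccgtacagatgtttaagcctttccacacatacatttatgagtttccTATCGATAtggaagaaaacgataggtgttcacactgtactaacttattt

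DREs were more frequent under promoter summits than beside them, and not under distal summits. In windows of the same length centred 1000 bp to either side of every summit, 88 of 14868 (0.592%) held a DRE, and 3730 of 668175 tiles of 200 bp along the chromosome arms did (0.558%). Around the 237 DRE summits themselves, 1 of 474 such side windows held a further DRE. Within 500 bp of an annotated transcription start site (TSS), here called promoter summits, 217 of 3240 held a DRE (6.70%, 95% Wilson interval 5.89 to 7.61), against 20 of 4194 distal summits (0.477%, 0.309 to 0.735). The distal share was thus at the level of the arm tiles. Intervals cover counting of windows or genes only. Windows centred on every annotated start site, bound or not, held a DRE in 1274 of 23307 cases (5.47%), so the promoter share stood a little above that of start sites in general. In the 7434 strongest peaks of each replicate, treated as separate lists, 237, 219 and 257 summits held a DRE in replicates 1, 2 and 3. Their share was 3.20% ± 0.256 (SD, n = 3) over all summits, 6.57% ± 0.449 over promoter summits and 0.455% ± 0.00402 over distal summits. A single DRE was present at 221 of the 237 members and 2 at the other 16, and none had 3 or more.

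**Figure D1:**
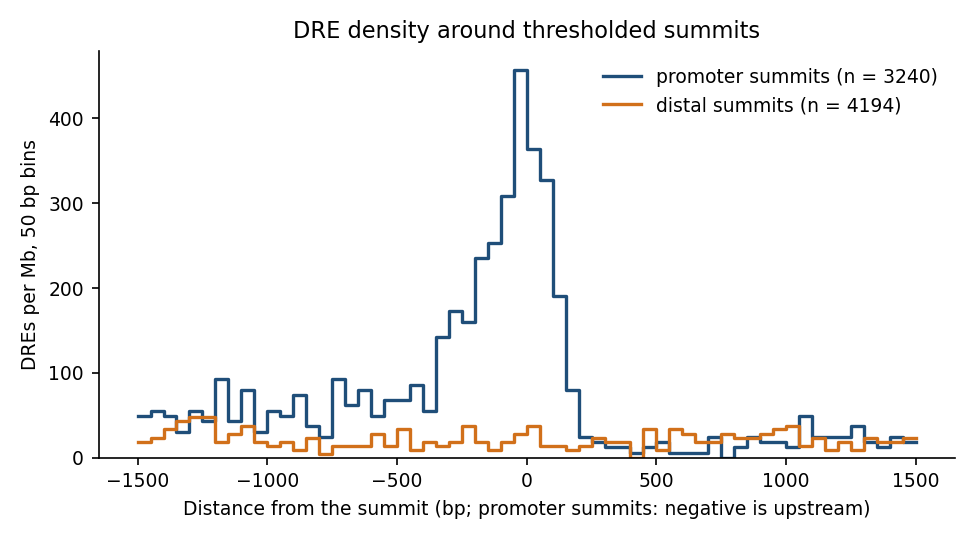
Number of DREs per Mb of sequence (vertical axis, 50 bp bins) against the distance in bp from the summit, for the 3240 promoter and the 4194 distal summits of the thresholded list. At promoter summits the density was 364 per Mb within 100 bp of the summit and 37.7 per Mb from 500 to 1500 bp away, and at distal summits it was 25 and 23.1 per Mb.

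DRE summits were promoter summits in 217 of 237 cases (91.6%, 87.3 to 94.5), against 42.0% of the summits without a DRE and 43.6% of the whole list. The other members were 9 in introns, 10 between genes and 1 in a coding exon. In the replicates' own lists the promoter share of DRE summits was 92.0, 91.3 and 93.0%, and that of the other summits 42.2, 42.9 and 44.6%. The groups did not overlap in any replicate: the difference was 48.9 percentage points ± 0.766 (SD, n = 3), with p = 0.25 in an exact sign-flip permutation test, two-sided, which is the smallest p that 3 replicates allow. No test over the replicates can therefore pass 0.05, and differences are given with their spread. Of all 4019 DREs on the arms, bound or not, 1557 (38.7%) lay within 500 bp of a start site.

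Among promoter summits, those with a DRE lay closer to the start site. Their median position relative to the nearest TSS was −40.0 bp, the minus sign meaning upstream (quartiles −86.0 and −4.0), and that of the other promoter summits was −69.0 bp (−160.0 and 25). Within 100 bp of the start site stood 176 of 217 promoter summits with a DRE (81.1%) and 1484 of 3023 without (49.1%). The replicate medians were −42.5, −38 and −41.0 bp with a DRE and −70, −65.0 and −68.0 bp without. In each replicate, then, the DRE group lay nearer the start site, by 27.2 bp ± 0.289 (SD, n = 3). The DRE itself had a median position of −41.5 bp, and 157 of 217 (72.4%) lay in the 100 bp upstream of the start site. Promoter DREs with no thresholded summit near them were placed alike on average (median −33.5 bp), with 58.8% of 1320 in those 100 bp. The rule keeps only summits within 100 bp of a DRE, so the position of DRE summits is bounded by where promoter DREs lie. Their difference from the other promoter summits is therefore given as a description. Promoter summits with a DRE more often had a start site on both strands within 500 bp, in any orientation. These were 96 of 217 (44.2%), against 704 of 3023 (23.3%) without a DRE. The same share was 45.2% ± 0.274 with a DRE and 24.5% ± 1.07 without over the replicates. DRE promoters in general, bound or not, also had this layout more often. A start site on the other strand lay within 500 bp for 768 of 1418 coding genes with a DRE promoter, and for 3502 of 12527 without.

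**Figure D2:**
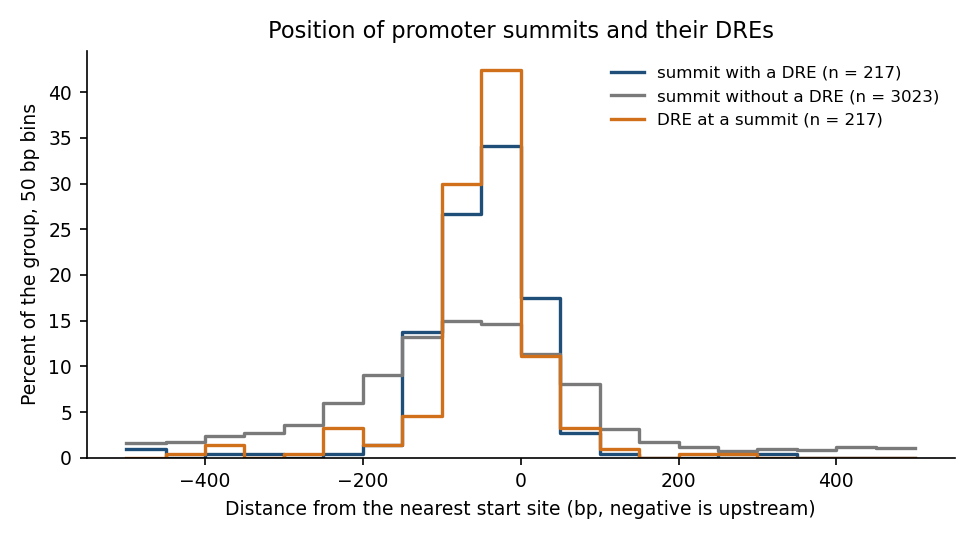
Distance in bp from the nearest start site (negative is upstream) against the percent of each group in 50 bp bins, for promoter summits with a DRE, promoter summits without one and the nearest DRE of the first group. The DRE and the summits that hold one gather in the 100 bp upstream of the start, with medians of −41.5 and −40.0 bp, and the summits without a DRE spread more widely around −69.0 bp.

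The distance from summit to element is bounded by the rule and is given as a description. The centre of the nearest DRE was a median of 42.5 bp from the summit (quartiles 21.5 and 75.5), and this median followed the window, at 22.5 bp with 100 bp and 71.0 bp with 400 bp. Counted over all promoter summits without that bound, the density of DREs in 50 bp bins from upstream to downstream was 253, 309, 457, 364, 327 and 191 per Mb between −150 and 150 bp. It was thus highest next to the summit. Farther out the density fell more slowly upstream than downstream, to 160 per Mb from −250 to −200 bp and 24.7 per Mb from 200 to 250 bp. The nearest DRE was within 10 bp at 25 of 237 members (10.5%), within 25 bp at 69 (29.1%) and beyond 50 bp at 97 (40.9%). RpL19 and eEF1gamma were among the close ones, with the DRE 2.5 bp from the summit, and Atat (91.5 bp) and the eIF6 summit (91.5 bp) among the far ones. Under the same bound, the replicates each had a median of 45.5 bp, and 28.2% ± 1.11 (SD, n = 3) were within 25 bp. Seen from the gene's strand, the DRE was upstream of the summit at 114 of 217 promoter members (52.5%) and downstream at the others, so within the window it took no fixed side. At the edge of the rule, 60 members had their DRE 75.5 to 95.5 bp from the summit, with a median signal of 403, and 22 summits just outside it had one at 96.5 to 114 bp, with a median signal of 409. Of these, 58 and 21 were promoter summits.

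The strongest DRE summits lay at promoters of genes with unlike functions. Signal is the peak caller's own score; its scale differs between lists, so each value is read against its own list and the rank, 1 being the strongest, is given beside it. The highest member ranked 59 of 7434, with a signal of 2646. It lay on 2R, 70 bp downstream of the start of the antisense RNA asRNA:CR45928 and at −99 bp from that of eIF6, which encodes a factor for the making of large ribosomal subunits. Its signal was 1123, 816 and 732 in replicates 1, 2 and 3, at ranks 54, 56 and 68. The next, at rank 106, stood between Atat, an α-tubulin acetyltransferase, and Shc, an adaptor of receptor tyrosine kinases, at −114 and −138 bp from their starts. There the replicate signals were 786, 645 and 605, at ranks 120, 97 and 101. Both members were therefore near the top of every replicate. The summit between vimar and CG17002 followed at rank 247 with 553, 361 and 409, and that of CG11151 at rank 252 with 548, 377 and 399. At rank 308 was Alg3, a mannosyltransferase of N-glycan assembly, with 420, 369 and 438. Its rank ran from 416 in replicate 1 to 201 in replicate 3. CG1827 came next at rank 344, with 469, 310 and 353. These 6 were the members with a signal above 1000 in the thresholded list.

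The rest of the 20 strongest promoter members ranked from 436 to 884. The summit shared by Lamtor3, a subunit of the Ragulator complex at lysosomes, and fws, a subunit of a Golgi tethering complex, had signals of 444, 302 and 249. RpL19, a protein of the large ribosomal subunit that shares its summit with CG3776, had 306, 277 and 293. RpS29, of the small subunit, had 297, 268 and 230. These values kept each of the 3 summits among the 1000 strongest peaks of every replicate. The tyrosine kinase gene Abl had 388, 216 and 213, and eEF1gamma, a subunit of translation elongation factor 1, had 324, 253 and 252. CalpA, a calpain protease gene that shares its summit with the adducin gene hts, had the widest spread of rank of those found in all 3, from 513 in replicate 1 to 1629 in replicate 3. Gas41, which encodes a YEATS-domain chromatin protein, and SA1, a cohesin subunit, shared a summit that was found in replicates 1 and 3 (258 and 262) and had no peak in the list of replicate 2. In replicates 1 and 3 the summit had moved far enough that the window around it held no DRE. Not described further were CG33939, the Cyt-b5 promoter (nearest start lncRNA:CR44209), CG4101 with Su(P), CG11791, ifc, a dihydroceramide desaturase gene, and or, a subunit of the AP-3 coat, with CG34213. Among the 16 members with 2 DREs was kibra (rank 1082), an upstream regulator of the Hippo pathway.

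**Figure D3:**
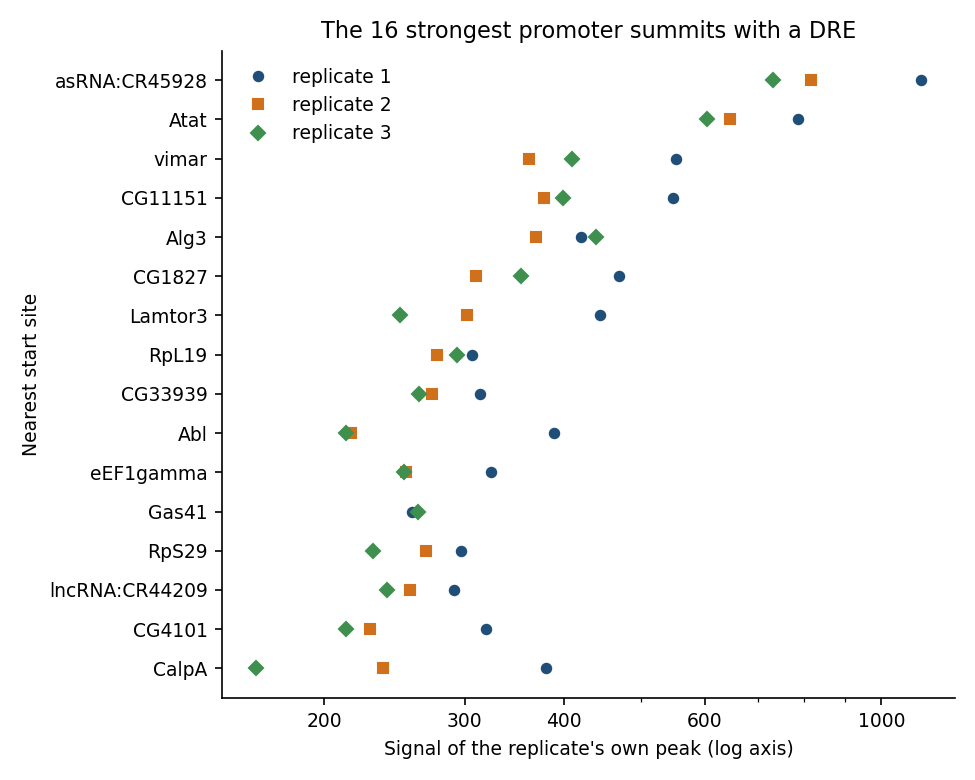
Signal of the replicate's own peak (horizontal log axis, the peak caller's score) at the 16 strongest promoter summits with a DRE, named by the nearest start site and ordered by rank in the thresholded list. Replicate 1 gives the highest value at most of them, and the scale of the score differs between lists; Gas41 has no point for replicate 2.

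Across the genome, 303 of 13945 coding genes had a DRE summit within 500 bp of a start site (2.17%), and 3175 (22.8%) had a thresholded summit of any kind there, which is what bound means below. Of the 303, 267 had a DRE in their own promoter, taken from 250 bp upstream to 50 bp downstream of a start site. Of 217 promoter members, 125 had 1 coding gene within reach, 88 had 2 or more and 4 had none. The gene lists that follow are described by these counts, beside the 2.17% over all coding genes, and no list was tested.

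Of 15 described targets of DREF, 9 had a DRE in the promoter and 1 had a DRE summit. Over all coding genes, 267 of the 1418 with a DRE promoter had a DRE summit, so 1 of 9 is too small a count to set apart from that share. The 1 was mor, a subunit of the Brahma chromatin-remodelling complex. The mor summit, shared with Hel89B, ranked 3575 with a signal of 346, and its replicate ranks were 6185, 7799 and 1791, so it stood outside the strongest peaks of replicate 2. Its DRE lay 94.5 bp from the summit, near the window's edge, and the windows of replicates 1 and 3 held none. The count of described targets was 0 with a 100 bp window and 3 in the pooled list. It was also 0 when the strongest peaks of replicate 2 and of 1 other replicate both had to hold the summit. The other 8 with a DRE promoter had no thresholded summit within 500 bp. They were PCNA, the sliding clamp of DNA polymerase, PolA1 and PolA2, subunits of DNA polymerase α, the cyclin gene CycA, the TATA-binding protein gene Tbp, the origin recognition gene Orc5, the ubiquitin ligase subunit gene SkpA, and osa, a further Brahma subunit. In the pooled list, which runs to 30000 peaks, PCNA had a peak at rank 14290, SkpA at 13545, CycA at 11102 and osa at 10511, and PolA1, PolA2, Orc5 and Tbp had none. Replicate 2 alone placed osa (rank 3741), PolA2 (3843), CycA (4914) and SkpA (6528) among its 7434 strongest peaks, and in the lists of replicates 1 and 3 these genes ranked beyond 7434 or had no peak. Of the 6 targets without a DRE in this promoter window, 4 were bound: brm (rank 137), mtSSB (987), E2f1 (1837) and Raf (3978). Among 43 replication and cell-cycle genes, 8 had a DRE promoter and 1 had a DRE summit, the cyclin-dependent kinase gene Cdk2, at rank 7075, near the end of the list; 15 of the 43 were bound. The count of 1 was 0 in the stronger 50% of the list. The best replicate ranks at Cdk2 were 7539, 13242 and 6293, so it was in the strongest peaks of replicate 3 only. The count was therefore 0 whenever 2 replicates both had to hold the summit in their strongest peaks.

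Genes for DREF, its partners and promoter-architecture proteins had 4 DRE summits among 18 genes (22.2%, 9.00 to 45.2). The count was 1 in the stronger 50% of the list. The 4 were Nurf-38 (rank 1792), a subunit of the nucleosome-remodelling factor NURF, Iswi (4356), its ATPase, the insulator protein gene CTCF (4815) and the chromosomal kinase gene JIL-1 (5168). Each of the 4 lay in the strongest peaks of all 3 replicates. Nurf-38 had replicate signals of 179, 149 and 179 and CTCF had 121, 76.1 and 91.3. BEAF-32 and Cp190 had a DRE promoter and were bound, but the summit near them had no DRE in its window. Dref itself was bound at rank 1103 without a DRE in its promoter.

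Genes of the cytoplasmic ribosome held the most members. Of 92 ribosomal protein genes, 17 had a DRE summit (18.5%, 11.9 to 27.6; 17.0% ± 0.628 over the replicates, SD, n = 3), and 8 with a 100 bp window. Strong ones among them were RpL19 (rank 576), RpS29 (682) and RpL28 (1224), the last sharing its summit with the initiation factor gene eIF1. Of the 17, 13 were in the strongest peaks of all 3 replicates, and RpS7 and RpL10Ab had no peak in the list of replicate 2. These genes were widely bound whether or not they held the element: 21 of the 28 with a DRE promoter (75%) and 43 of the 64 without (67.2%). Translation factors and tRNA synthetases had 6 DRE summits among 84 genes (7.14%, 3.31 to 14.7), led by eIF6 (59), eEF1gamma (637), eIF1 (1224) and eIF3a (1334). The proteasome had 4 of 48 (8.33%, 3.29 to 19.6), at Prosbeta1 (2170), Rpn12 (2578), Prosalpha3 (4577) and Rpn3 (4715). Mitochondrial ribosomal proteins had 4 of 73 (5.48%, 2.15 to 13.3, which covers the 2.17% over all coding genes), at mRpL4 (3026), mRpS18B (4133), mRpL19 (4257) and mRpS17 (5473). That count was 2 when the summit had to be in the strongest peaks of both replicates 1 and 2, and 0 with a 100 bp window. Over the replicates the share was 3.20% ± 0.791. General transcription factors and Mediator had 10 DRE promoters among 49 genes, and none of these 10 was bound. Over all coding genes with a DRE promoter, 33.1% were. The number of these 49 genes with a DRE summit was 0, but 1 with DRE variants counted and 2 in the pooled list. Over the replicates the share was 0.68% ± 1.18. No segmentation or homeotic gene (of 28) and no cuticle protein gene (of 117) had a DRE summit, and these lists held 0 and 1 DRE promoters. With a promoter limit of 1000 bp, 1 segmentation or homeotic gene had one.

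**Figure D4:**
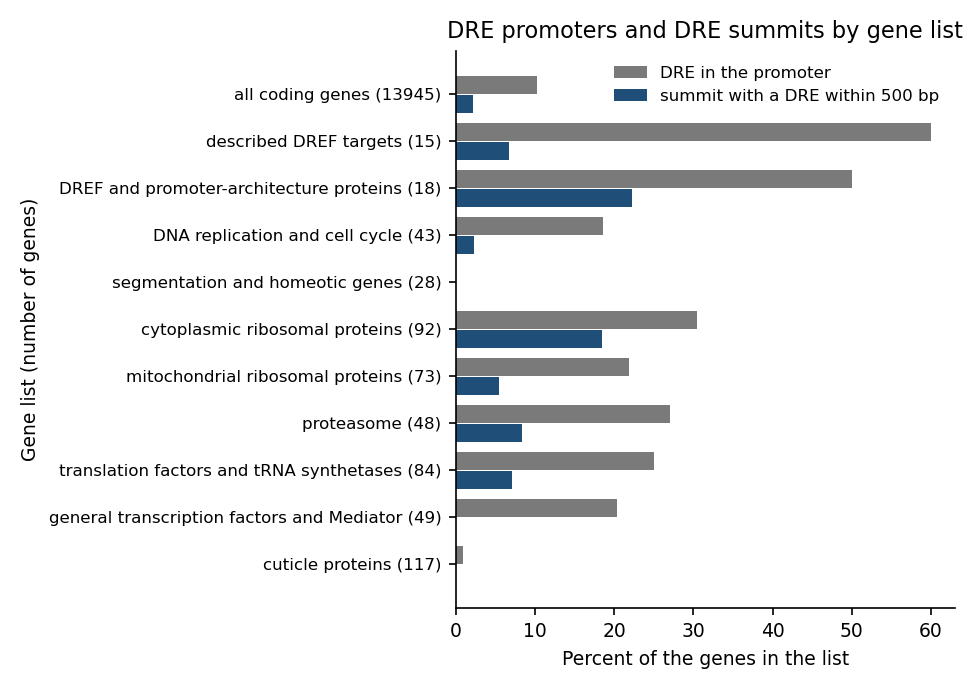
Percent of the genes of each list (horizontal axis, number of genes in brackets) with a DRE in the promoter and with a DRE summit within 500 bp of a start site. Described DREF targets show the widest gap, 60.0% against 6.67%, and cytoplasmic ribosomal proteins a narrower one, 30.4% against 18.5%.

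Seen from the genes, a DRE in the promoter went with more frequent binding. Of the 1418 coding genes with a DRE promoter, 470 were bound (33.1%, 30.7 to 35.6), against 2705 of 12527 without (21.6%, 20.9 to 22.3). In the replicates' own lists the bound share was 35.0, 35.2 and 39.0% with a DRE and 22.0, 22.0 and 23.4% without. The DRE group was higher in 3 of 3 replicates, by 13.9 points ± 1.43 (SD, n = 3; exact sign-flip permutation test, p = 0.25). Shared and unshared promoters are given apart. Where no start site lay on the other strand within 500 bp, 28.9% against 17.3% were bound, a difference of 14.1 points ± 2.54 over the replicates. At shared promoters it was 36.7% against 32.6%, a difference of 4.96 points ± 0.674. The first difference was larger than the second in 3 of 3 replicates, by 9.11 ± 2.6 points (SD, n = 3; exact sign-flip permutation test, p = 0.25). Among the other promoter words, the bound share was 43.8% (41.1 to 46.5) of genes with the repeat GAGAGAG, 33.0% with the motif 1 core GGTCACAC, 32.6% with the E-box CAGCTG and 32.2% with the motif 8 core. It was 29.1% with the motif 6 core, 27.5% with CGATA outside a DRE and 23.9% with the TATA word. The DRE thus stood below the repeat and beside the motif 1 core, the E-box and the motif 8 core. From the side of the element, 237 of the 1557 DREs within 500 bp of a start site (15.2%, 13.5 to 17.1) had a thresholded summit within 100 bp, and 20 of the 2462 farther away did (0.812%). For comparison, 1885 of 23307 start sites (8.09%) had a summit that near. Over the replicates the share of promoter DREs was 15.6% ± 1.36 and that of start sites 8.21% ± 0.328. At this threshold most promoter DREs therefore had no summit.

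The median signal of the 237 was 342 (lowest 218, highest 2646), and that of the other 7197 was 338, a ratio of 1.01. The ratio was 0.970 with a 100 bp window, 0.941 in the stronger 50% of the list and 1.87 over all peaks of the pooled list, so which group was higher depended on the window and the list. Among promoter summits the medians were 341 with a DRE and 366 without, a ratio of 0.933. The replicate medians of promoter summits were 148, 116 and 109 with a DRE and 156, 118 and 114 without. The DRE group was thus lower in 3 of 3 replicates, with a mean ratio of 0.964 ± 0.0197 (SD, n = 3; exact sign-flip permutation test on the log2 ratio, p = 0.25). Over all summits it was higher in 3 of 3, with a ratio of 1.02 ± 0.00593. The top of the list held few members: 6 of 237 (2.53%) had a signal above 1000, against 424 of 7197 (5.89%). Among the 743 strongest peaks of the list, 14 of 417 promoter summits held a DRE (3.36%, 2.01 to 5.56), which is below the 6.70% over all promoter summits. The same share was 2.74, 3.67 and 3.72% among the 743 strongest peaks of the replicates, below each replicate's 6.69, 6.08 and 6.95% over its promoter summits.

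**Figure D5:**
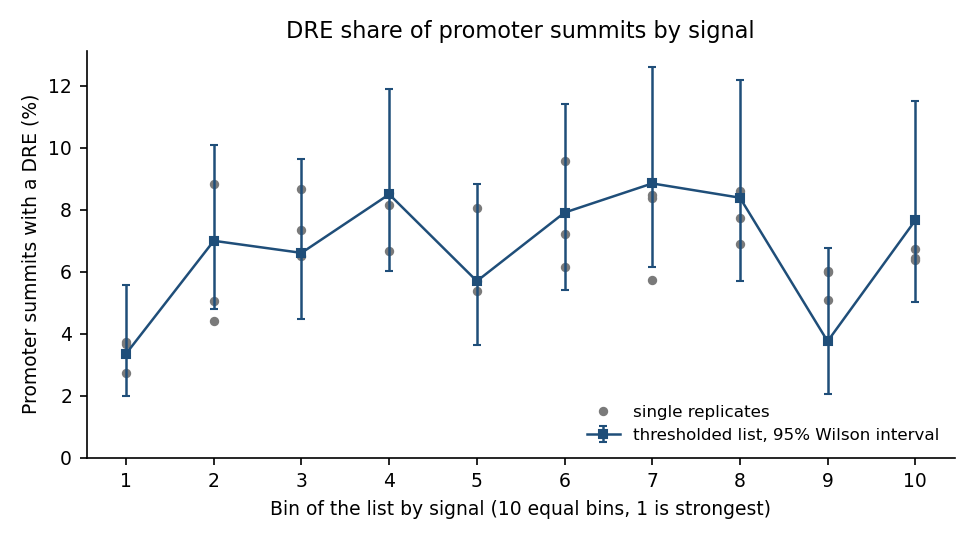
Percent of promoter summits with a DRE (vertical axis) in bins of about 743 peaks in order of signal, bin 1 being the strongest, for the thresholded list with 95% Wilson intervals and for the 3 replicates' own lists. Bin 1 lies at 3.36% in the thresholded list, and no steady order runs through the other bins.

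The 20 distal members were scattered. The strongest was at ey, the Pax6 gene of eye development, on chromosome 4, with its summit at −805 bp from the start, rank 873 and replicate signals of 270, 182 and 259. The others among the 5 strongest were in an intron of PAN3, a deadenylase subunit (rank 916), upstream of the homeodomain gene zfh2 (1462, also on chromosome 4), in an intron of tna (1912), and near tej (2082), a Tudor-domain gene of the piRNA pathway, at −536 bp from its start and so just past the promoter limit. All 5 were in the strongest peaks of all 3 replicates. All 3 members on chromosome 4, of 66 summits there, were distal, so none of its 37 promoter summits held a DRE. The X chromosome had 50 members among 1225 summits (4.08%; 4.10% ± 0.211 over the replicates), and arms 2L, 3L, 3R and 2R had 2.62, 2.73, 3.01 and 3.70%.

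Replicate support depended on how it was counted. Of the 237, 145 (61.2%, 54.8 to 67.2) fell inside peaks that were among the 7434 strongest in each replicate, against 60.6% of the whole list. A further 67 were in those of 2 replicates and 25 in those of 1. Among promoter summits, 134 of 217 with a DRE (61.8%) were in all 3, against 64.6% of all promoter summits. When 50% of both peaks had to overlap, the share fell to 34.2% (28.4 to 40.4) with a DRE and 37.6% without, and among promoter summits it was 35.0% (29.0 to 41.6) and 41.4% (39.7 to 43.2). When every listed peak counted, 218 of 237 (92.0%) were found in all 3 replicates, against 93.6% of the summits without a DRE. The summit moved by a median of 14.5, 18.0 and 18.0 bp between the thresholded list and replicates 1, 2 and 3. The replicate's own window still held a DRE at 208 of 230, 200 of 228 and 201 of 233 members found there. At 156 of the 218 found everywhere it did so in all 3, and at 234 of 237 in at least 1. Membership thus changed with the replicate for part of the set. Across members, the signal in 1 replicate was ranked like that in another with Spearman's rho of 0.645, 0.642 and 0.608 for the 3 pairs, and across summits without a DRE with 0.713, 0.692 and 0.685; these are descriptions over 222 to 226 and 6865 to 6899 peaks of the same libraries.

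Other promoter words were counted in the members' windows, in other promoter summits and at start sites. The word CGATA, counted on both strands and outside the DRE, was in 136 of 217 promoter members (62.7%), against 33.5% of the other promoter summits. Start sites with a DRE, bound or not, held it in 823 of 1274 cases (64.6%), and all start sites in 32.7%. The repeat GAGAGAG was in 5 of 217 (2.30%) against 6.25%, and in 1.81% of start sites with a DRE. The motif 1 core was in 7.37% against 4.30%, and in 8.08% of start sites with a DRE. For these 3 words the members thus stood nearer to the start sites with a DRE than to the other promoter summits. The E-box was in 12.9% against 11.8% and in 19.1% of start sites with a DRE, and the TATA box word TATAAA in 26.7% against 27.7% and 23.9%. For these words the members of the thresholded list stood nearer to the other promoter summits. Over the replicates, the E-box was in 15.4% ± 1.04 of promoter summits with a DRE and 11.5% ± 0.334 of those without (SD, n = 3). The first value lay about midway to the start sites with a DRE, so the placement of the E-box depended on the list. For TATAAA the members' interval (21.3 to 33.0) covered both compared shares, so its placement was not settled. Promoter windows with a DRE had a lower median GC content, 39.0% against 42.5%, and over the replicates 38.4% ± 0.52 against 42.0% ± 0.5. The part of base composition in the counts of these words was not tested.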

How the data were processed

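CG13894 ChIP-seq peaks of 3 biological replicates of 1 group were used. Per the labels, chromatin was sonicated to 200 to 800 bp. The embryo age was taken from the source description, because the labels' age field holds no possible embryo age. The authors' narrowPeak lists (dm6) cover each replicate, the replicates pooled (30000 peaks each) and the thresholded set. The aligner, caller, settings and threshold were not given in the sources used here. Each list's deposited signal of a peak is the peak caller's score and ranks peaks within a list. The deposited −log10 q-value is at its cap for 84.2% of thresholded peaks and 204 of the 237 members, and was not used further. The summit is the deposited start plus the deposited offset, a value in bp that is neither score nor signal; 5 summits fall past the end of their peak, and none of them holds a DRE.

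Reference sequence and genes were those of Release 6 with Ensembl release 115, without transposons and pseudogenes; 16193 of 16213 start codons (99.9%) read ATG. A DRE was an exact match inside the 200 bp window. The 7434 strongest peaks of each replicate were analysed alike for mean ± SD. A summit was supported by a replicate when it lay in a peak of that replicate. Tests were exact sign-flip permutation tests over the 3 replicates, two-sided; peaks and genes are not replicates and gave no p-values. The labels call the replicates biological. With 3 replicates the p-value is at its smallest whenever all differences share a sign, whatever their size or spread. Intervals are 95% Wilson intervals. Motifs were searched on both strands: the DRE, its variants with A first, with T last or with both, CGATA outside a DRE, the motif 1 core GGTCACAC, the E-box CAGCTG, the motif 6 core GTATNTTT, the motif 8 core GGCANCG, the TATA word TATAAA and the repeat GAGAGAG. Motif search, distances and nearest starts were tested on simulated sequence. Python 3.11.15, pandas 2.3.3, numpy 2.4.6 and SciPy 1.17.1 were used.

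Named are the genes at the 20 strongest promoter members, the 5 strongest distal members, every described DREF target, DREF, partner or architecture gene with a DRE summit, and up to 4 of each other list; 1 gene that the rule names is not reported here. Outside that rule, chosen after their values were seen, are kibra, the unbound or DRE-less members of the first 2 lists, RpS7 and RpL10Ab. The members, lists and tests were chosen with earlier results of these data known. Alternatives were other windows, DRE variants, list thresholds, promoter definitions and support rules. For each replicate left out, only summits in the strongest peaks of both others were kept.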

Additional observations from a re-analysis of the deposited data

How the results depend on the processing

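Each alternative was applied to those of the main results that it can affect; other promoter definitions, for example, to the promoter and bound shares, and other support rules to support. The pooled list gives no support value. Moved means by more than the replicate SD, or, for support, outside its Wilson interval, or, for the number, by over 1.5 times. The number of DRE summits was 129 with a 100 bp window, 453 with the variants counted, 123 in the stronger 50% of the list and 445 in the pooled list. Their share of all summits was 1.74% with 100 bp, 4.63% with 400 bp, 6.09% with variants and 1.48% in the pooled list. The promoter share was 89.9% with 100 bp, 81.0% with variants, 90.2% in the stronger 50%, 82.9% in the pooled list, 88.6 and 94.5% with promoters of 200 and 1000 bp and 89.0% with 1 start site per gene. Support by all 3 replicates was 89.4% in the stronger 50%, 34.2% when 50% of both peaks had to overlap and 92.0% with every listed peak. The signal ratio was 0.970 with 100 bp, 1.06 with 400 bp, 0.941 in the stronger 50% and 1.87 in the pooled list, so its side of 1 depends on the window and the list. The distance was 22.5 bp with 100 bp, 71.0 bp with 400 bp, 41.5 bp with variants and in the pooled list, 45.5 bp in the stronger 50% and 43.0 bp with 1 summit per region. The bound share of genes with a DRE promoter was 20.2% in the stronger 50%, 48.4% in the pooled list, 27.8 and 36.4% with promoters of 200 and 1000 bp and 30.2% with 1 start site per gene. That of genes without a DRE promoter was not recomputed under any alternative. How the difference between these groups of genes depends on the processing was therefore not tested. The causes were not tested, apart from the number of peaks and width of windows that each alternative sets.

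To leave out a replicate, the thresholded list of all 3 was cut to summits in the strongest peaks of both other replicates. Peaks were not called again, so the number of members falls through this filter. It gave 161 to 173 DRE summits, shares of 3.05 to 3.33%, promoter shares of 90.7 to 93.1% and signal ratios of 1.00 to 1.03. Distances were 43.5 to 44.5 bp and bound shares 25.7 to 26.5%. Support by both other replicates, 67.9 to 73.0%, is the same number of DRE summits as a share of the 237, not a separate result. Summits past a peak's end, set to its last base, moved no result. Of the recomputed values of the main results, 48 moved and 30 did not. Of the list counts, 24 recomputed values moved by over 1.5 times or to or from 0, and 116 did not. The latter include counts that stayed at 0, as for cuticle proteins. Depth is unknown and lists end at 30000 peaks, so a gene without a peak is not shown to be unbound. The replicates are of 1 line, and 3 cannot reach p below 0.25.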
